A study of Mus musculus with 30 samples.

Results

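The 9 genes described here, Isg15, Ifit3, Ifi44, Irf7, Rtp4, Xaf1, Zbp1, Epsti1 and Irf1, belong to the core of the interferon response. They were taken by name, with no threshold on a measured value, and all 9 were found among the 23013 gene rows of the table, where Entrez numbers were paired with symbols. The list was chosen with earlier results of these data known, so shares over all genes given beside the members are a scale and not a test. Each was followed gene by gene through 30 libraries from 8 organs of 8 mice, in both states of the study.

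Interferons are secreted proteins that cells release when they sense foreign or misplaced nucleic acids or when lymphocytes are activated. Type I and type III interferons act through receptors and JAK kinases mainly on genes with an interferon-stimulated response element (ISRE), while type II interferon acts mainly on genes with a gamma-activated site (GAS). The genes switched on in this way are kept low in resting cells, and their joint level in blood cells is widely used as a readout of interferon exposure in autoimmune arthritis and related diseases.

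The mice were male DBA1/J animals, a strain that develops collagen-induced arthritis (CIA), and were 8 to 12 weeks old. CIA mice received bovine collagen II in complete Freund's adjuvant near the tail base and a booster on day 20, and healthy controls received saline, so immunization and arthritis cannot be told apart in any comparison. Healthy mice were H3, H4, H6 and H7 (arthritis score 0), and CIA mice were S1 and S2 (score 8), S6 (score 3 to 4) and S7 (score 3). All organs were frozen before Seq-Well, a method that captures single cells in microwells and reads the 3' ends of polyadenylated RNA.

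Blood gave sums for 4 healthy mice and 3 CIA mice (S2, S6, S7), and lymph node for the same 4 healthy mice and 3 CIA mice (S1, S2, S7). The other organs had 1 mouse per state, namely H3 and S1 in joint, and H6 and S1 in the remaining 5 (spleen, thymus, lung, skin and muscle). The deposited values are whole numbers that had been smoothed over neighbouring cells, so they are called units here and not counts. Units were added up over the cell barcodes of a mouse and organ and expressed per 1000000 units of that sum (UPM). Differences between states are on the scale log2(UPM + 10), which understates the change of low genes.

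Libraries held 27 to 934 barcodes and 217494 to 7886790 units, and the 8282 barcodes held 4590 distinct profiles. No profile occurred in more than 1 library, and 13 barcode sequences were shared by libraries. The lowest percentile of values above 0 lay between 5.12 and 21.6 UPM in the lymph node libraries and between 1.23 and 61.0 UPM in the blood libraries, where H3 (27 barcodes, 41.4 UPM) and S6 (62 barcodes, 61.0 UPM) had the highest. A gene listed at 0 there is not shown to be absent. A second blood library of H4, with 95 barcodes, listed all 9 genes at 0, and H4 is given as the sum of both of its libraries. The title of each library carried the suffix CIA or 2CIA after the mouse number, whatever its state. This suffix is taken as a library batch, and all 3 CIA blood libraries carried 2CIA. Some titles had a further mark in brackets after the suffix, which was not used.

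The promoters of 7 of the 9 genes were in the RefSeq table (build GRCm38.p6, 250 bases before to 50 bases after the start), all but those of Rtp4 and Zbp1. They were searched on both strands for the ISRE core (GAAA, any 2 bases, GAAA) and the GAS core (TTC, any 3 bases, GAA). An ISRE core stood in 2 of the 7 genes, Isg15 and Ifit3, against 3.99% of 27025 genes, and a GAS core in 1 of the 7, Irf1, against 9.55% of genes. The promoters of Ifi44, Irf7, Xaf1 and Epsti1 held neither core. The 3 promoters with a match are shown, with the matched letters in capitals. Isg15 lies on the minus strand (chr4:156200769-156201068), and its 3 ISRE matches overlap and begin 78, 72 and 66 bases before the start. Ifit3 lies on the plus strand (chr19:34583279-34583578), with matches on the opposite strand (TTTC, any 2 bases, TTTC) beginning 156 and 122 bases before the start. The first of 2 starts of Irf1, on the plus strand (chr11:53769764-53770063), has its GAS match 90 bases before the start. A match is a description of letters and not a bound site.
Isg15: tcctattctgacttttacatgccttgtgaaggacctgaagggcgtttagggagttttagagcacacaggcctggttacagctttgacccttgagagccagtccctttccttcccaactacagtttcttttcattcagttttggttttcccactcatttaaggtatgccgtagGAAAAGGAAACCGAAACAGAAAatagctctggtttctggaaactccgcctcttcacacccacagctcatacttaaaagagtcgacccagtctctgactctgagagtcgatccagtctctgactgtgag
Ifit3: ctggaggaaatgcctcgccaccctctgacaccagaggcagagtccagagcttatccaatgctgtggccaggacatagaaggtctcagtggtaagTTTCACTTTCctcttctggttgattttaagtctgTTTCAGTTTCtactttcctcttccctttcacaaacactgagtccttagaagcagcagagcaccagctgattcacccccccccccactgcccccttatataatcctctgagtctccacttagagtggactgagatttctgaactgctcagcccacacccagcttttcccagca
Irf1: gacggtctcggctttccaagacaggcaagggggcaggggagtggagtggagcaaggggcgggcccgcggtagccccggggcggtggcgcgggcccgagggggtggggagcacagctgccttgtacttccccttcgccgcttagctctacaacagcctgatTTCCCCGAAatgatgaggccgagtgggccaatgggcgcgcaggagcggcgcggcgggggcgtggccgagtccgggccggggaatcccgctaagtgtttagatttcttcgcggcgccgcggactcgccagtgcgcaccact

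Across the organs, the members did not share 1 pattern. Isg15, a ubiquitin-like protein that is joined to other proteins, and Irf1, a transcription factor, were above 0 in all 8 organs of both states. Healthy Isg15 was highest in muscle (200.1 UPM) and spleen (184 UPM) and lowest in lymph node (0 to 33.4 UPM in 4 mice), and CIA Isg15 was again highest in muscle (345 UPM) and spleen (245 UPM) and lowest in thymus (34.3 UPM). Healthy Irf1 ran from 12.6 UPM in lung to 233 UPM in joint. In contrast, Ifi44, an antiviral protein related to GTP-binding proteins, was listed at 0 in 6 of 8 healthy organs, and Rtp4, a chaperone of cell-surface receptors, in 5 of 8. In CIA mice Ifi44 was at 0 in 3 of 8 organs and Rtp4 in 2 of 8. The healthy muscle, spleen, lung and joint levels rest on 1 mouse each, so their order has no error.

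**Figure D1:**
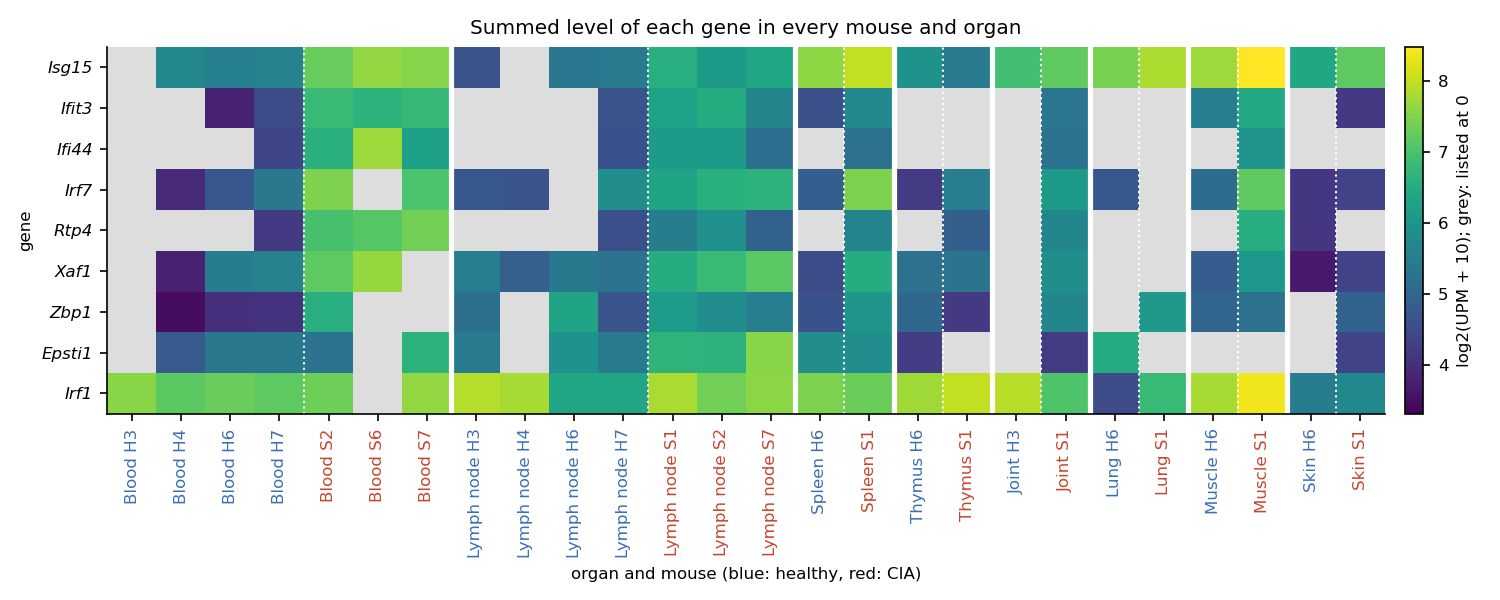
Level of each gene (rows) in every mouse and organ (columns), as colour on the log2(UPM + 10) scale, with grey for genes listed at 0 and with healthy mice named in blue and CIA mice in red. Isg15 and Irf1 are coloured in nearly every column, whereas Ifi44 and Rtp4 are grey in most healthy columns, and H7 is the healthy mouse in which all 9 genes stand above 0 in blood.

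The question in blood was whether the members stood higher in mice with CIA. Ifit3, Ifi44, Rtp4 and Isg15 were higher in each of the 3 CIA mice than in each of the 4 healthy mice, while Irf7, Xaf1, Zbp1, Epsti1 and Irf1 overlapped. So 4 of 9 members had groups that did not overlap with CIA higher, against a background of 4.96% of the 4416 genes that passed the filter (mean of at least 25 UPM) and 1.44% of the 15244 genes above 0. By limma, no member was called (Benjamini-Hochberg adjusted p under 0.05), and Zbp1 did not pass the filter. Of all genes tested 0.362% were called. No member had all CIA mice below all healthy mice, against 6.0% of genes. Ifit3, Ifi44, Irf7, Rtp4, Xaf1 and Epsti1 had healthy means under 25 UPM and passed the filter only through the CIA mice, so no count of differences or median is given over the members that passed. With a trimmed mean (TMM) in place of the plain total, the groups of Isg15 overlapped and 3 members remained apart.

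Rtp4 was listed at 0 in H3, H4 and H6, stood at 8.29 UPM in H7, and reached 115, 129 and 156 UPM in the CIA mice S2, S6 and S7. The lowest CIA mouse thus stood far above the highest healthy mouse. On the log2 scale Rtp4 differed by 3.62 (SE 0.95, adjusted p 0.182 by limma). Ifi44 was at 0 in the same 3 healthy mice and at 11.0 UPM in H7, against 86.8, 200.1 and 65.9 UPM in S2, S6 and S7. The difference of Ifi44 was 3.26 (SE 0.96, adjusted p 0.328 by limma).

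Ifit3 belongs to the IFIT proteins, which bind foreign RNA in a complex. Its near-identical copy Ifit3b may share reads with it, so the level is uncertain to that extent. It was listed at 0 in H3 and H4 and stood at 4.21 UPM in H6 and 12.7 UPM in H7, against 101, 90.3 and 98.8 UPM in S2, S6 and S7. The 3 CIA values lay close together, and the log2 difference was 2.99 (SE 0.95, adjusted p 0.407 by limma). Isg15, whose promoter carries the run of 3 overlapping ISRE cores, was at 0 in H3 and between 36.5 and 43.3 UPM in the other 3 healthy mice. It stood at 145, 190.4 and 175 UPM in S2, S6 and S7, a difference of 2.43 (SE 0.89, adjusted p 0.503 by limma).

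With each mouse left out in turn, the difference ran from 3.50 to 3.83 for Rtp4, from 2.83 to 3.57 for Ifi44, from 2.85 to 3.25 for Ifit3 and from 1.86 to 2.66 for Isg15. Among the libraries with the suffix 2CIA alone (H3 and 1 library of H4 against the 3 CIA mice), the differences were 3.83, 3.53, 3.42 and 4.16 in the same order, with adjusted p of 0.958, 0.958, 0.958 and 0.668 by limma. The 2 healthy libraries there listed all 4 genes at 0, with a lowest percentile above 0 of 41.4 UPM (H3) and 25.7 UPM (H4). Those differences therefore rest on the CIA values alone. The suffix CIA held no CIA blood library, so no value could be had within it.

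Irf7, a transcription factor that drives type I interferon genes, was listed above 0 in some CIA mice only. The blood libraries of S6 and S7 had 62 and 97 barcodes and a lowest percentile above 0 of 61.0 and 26.3 UPM. A gene listed at 0 in either is not shown to be absent. Irf7 stood at 167 UPM in S2 and 119 UPM in S7 but was listed at 0 in S6, against 0 to 32.0 UPM in healthy mice. Its difference was 1.58 (SE 1.10, adjusted p 0.662 by limma) and ran from 0.82 without S2 (adjusted p 0.745) to 2.89 without S6 (adjusted p 0.458), with 1.05 without S7. Xaf1, which binds the apoptosis inhibitor XIAP, stood at 136 UPM in S2 and 193 UPM in S6 and was at 0 in S7, against 0 to 38.8 UPM in healthy mice. The difference of Xaf1 was 1.51 (SE 1.13, adjusted p 0.702 by limma) and ran from 0.71 without S6 (adjusted p 0.910) to 2.88 without S7 (adjusted p 0.460), with 0.94 without S2.

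Zbp1, a sensor of Z-form nucleic acids, was above 0 in S2 alone of the CIA mice (85.2 UPM) and between 0 and 6.96 UPM in healthy mice. It did not pass the filter, and a two-sided exact permutation test over the 7 mice gave p = 0.80 (smallest possible 0.0286). Epsti1, an interferon-induced gene first known from breast tumours, stood at 29.1, 0 and 90.6 UPM in S2, S6 and S7 and at 0 to 31.8 UPM in healthy mice (difference 0.36, SE 1.03, adjusted p 0.952 by limma).

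Irf1, a factor induced by type II interferon, was the 1 member with a lower mean in CIA blood. It stood at 134 to 179 UPM in the 4 healthy mice, and at 151, 0 and 189 UPM in S2, S6 and S7. The 2 CIA mice in which it was above 0 overlapped the healthy mice. The difference was -1.21 (SE 0.89, adjusted p 0.693 by limma), 0.18 without S6 and 0.65 among the 2CIA libraries, where the library of H4 listed Irf1 at 0 as well.

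According to the study's methods, blood was passed over a Lymphoprep density gradient to keep mononuclear cells and treated to lyse red cells, steps intended to remove neutrophils and erythroid cells, yet marker genes of both were present. In summed libraries fewer cells of a type and less RNA per cell cannot be told apart. The 10 neutrophil markers summed to 1655 to 5434 UPM in healthy mice, and to 63541 UPM in S2, 5235 UPM in S6 and 73559 UPM in S7, with 3 to 10 of them above 0 in each state. The 10 monocyte markers summed to 774 to 3812 UPM in healthy and 4465 to 14089 UPM in CIA mice, with 6 to 9 and 7 to 10 of them above 0, and the part of neutrophils and monocytes in the members' levels was not tested. By limma 3 of 9 neutrophil and 1 of 8 monocyte markers tested were called higher in CIA, against 0.362% of all genes called. T-cell markers summed to 357 to 1182 UPM in healthy and 125 to 290 UPM in CIA mice, and Cd3d and Cd3e were at 0 in S6 and S7. Of 10 B-cell markers 9 were lower in CIA (median difference -0.90), as were all 3 NK-cell markers tested (-1.65), with none called. Erythroid genes took 35799 to 516413 UPM in healthy and 58511 to 378686 UPM in CIA blood. The median difference of all genes was -0.10 with the plain total, -0.37 with the total without erythroid genes and -0.63 with TMM. The same 4 members did not overlap without the erythroid genes.

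Within each blood library, barcodes were also divided into an upper and a lower set at the median share of neutrophil-marker units. Isg15 was higher in the neutrophil-rich set in 6 of 6 libraries that held it, at 248 against 37.3 UPM in S2, 403 against 0 UPM in S6 and 309.5 against 24.3 UPM in S7. In healthy blood the split was 79.5 against 24.9 UPM in the deeper library of H4, 38.6 against 34.4 UPM in H6 and 50.2 against 26.9 UPM in H7. Ifit3 followed it in 5 of 5 libraries, with 141 against 60.4 UPM in S2, 171 against 18.5 UPM in S6 and 188 against 0 UPM in S7. Ifi44 and Rtp4 were higher in that set in 1 of 4 libraries each. Ifi44 stood at 15.9 against 160 UPM in S2, 134 against 259 UPM in S6 and 125 against 0 UPM in S7. In joint, Isg15 was instead lower in the neutrophil-rich set, at 72.7 against 145 UPM in H3 and 124 against 151 UPM in the larger library of S1. By monocyte markers, Isg15 was higher in the upper set in 5 of 6 blood libraries, Ifit3 in 4 of 5, and Ifi44 and Rtp4 in 3 of 4 each. By lymphocyte markers, Isg15 was higher in the upper set in 0 of 6, Ifit3 in 0 of 5, and Ifi44 and Rtp4 in 1 of 4 each. In spleen, Isg15 was higher in the upper set by neutrophil and by monocyte markers in 2 of 2 libraries each. Both sets come from the same smoothed library, so these values are a description with no test.

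The same question in lymph node gave a more even picture. Here Isg15, Ifit3, Ifi44, Irf7, Rtp4, Xaf1 and Epsti1 were higher in each of 3 CIA mice than in each of 4 healthy mice, while Zbp1 and Irf1 overlapped. These 7 of 9 members compare with 2.78% of the 5081 genes that passed the filter and 2.32% of the 11649 genes above 0, and none was lower in this way, against 2.56%. No member was called by limma, where 1 gene in all was called (0.0197%). Isg15, Ifit3 and Irf7 had healthy means under 25 UPM and passed the filter only through the CIA mice. The median difference of all genes was 0.05.

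Xaf1 had the smallest p of the members tested, which ranked 3 among all genes. It stood at 35.9 UPM in H3, 20.0 UPM in H4, 32.2 UPM in H6 and 28.9 UPM in H7, and at 81.1 UPM in S1, 102 UPM in S2 and 132 UPM in S7. No mouse was at 0, and the log2 difference was 1.54 (SE 0.37, unadjusted p 0.000573, adjusted p 0.803 by limma). Epsti1 stood at 33.8, 0, 52.1 and 33.4 UPM in H3, H4, H6 and H7 and at 91.8, 91.0 and 179 UPM in S1, S2 and S7 (difference 1.92, SE 0.53, adjusted p 0.803 by limma). In the 2 libraries of S7 it was at 243 and 87.1 UPM, so much of the spread of Epsti1 lay within 1 mouse.

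Irf7 stood at 16.9 UPM in H3, 15.7 UPM in H4, 0 in H6 and 48.2 UPM in H7, against 70.0 UPM in S1, 86.2 UPM in S2 and 90.8 UPM in S7. The groups did not overlap, and the difference was 1.87 (SE 0.55, adjusted p 0.838 by limma). Isg15 ran from 0 to 33.4 UPM in healthy mice and from 60.2 to 83.7 UPM in CIA mice (difference 1.66, SE 0.55, adjusted p 0.999 by limma). Both genes were at 0 in 1 healthy mouse, Irf7 in H6 and Isg15 in H4. With each mouse left out, the lymph node difference ran from 1.38 to 1.70 for Xaf1, from 1.35 to 2.22 for Epsti1, from 1.42 to 2.27 for Irf7 and from 1.21 to 1.92 for Isg15.

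Ifit3, Ifi44 and Rtp4 were again listed at 0 in H3, H4 and H6, and stood at 15.3, 14.5 and 14.1 UPM in H7. Ifit3 stood at 68.3 UPM in S1, 81.5 UPM in S2 and 40.5 UPM in S7 (difference 2.499, SE 0.82, adjusted p 0.999 by limma). Ifi44 stood at 59.96, 59.7 and 26.7 UPM and Rtp4 at 35.2, 51.2 and 20.2 UPM in S1, S2 and S7, with S7 the lowest CIA mouse for all 3 genes. The 2 libraries of S7 held Rtp4 at 10.5 UPM (suffix 2CIA) and 33.9 UPM (suffix CIA), and the first lay below the 14.1 UPM of H7. With every library as its own sample, 6 members and not 7 did not overlap in lymph node. Ifi44 and Rtp4 did not pass the filter, and exact permutation tests over the 7 mice gave p = 0.0571 for each, where 0.0286 is the smallest that 35 splits allow. A healthy mouse above 0 in each of the 3 genes was H7 alone, and this held in blood for Ifi44 and Rtp4 too.

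Zbp1 ran from 0 in H4 to 70.0 UPM in H6, above each CIA mouse (36.3 to 62.0 UPM). Its difference was 0.97 (SE 0.62, adjusted p 0.999 by limma). Irf1 fell into 2 healthy pairs, 229 and 213 UPM in H3 and H4 and 73.0 and 71.9 UPM in H6 and H7, and lay between 157 and 216 UPM in CIA mice. The difference of Irf1 was 0.49 (SE 0.40, adjusted p 0.999 by limma) and -0.16 among the 2CIA libraries.

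**Figure D2:**
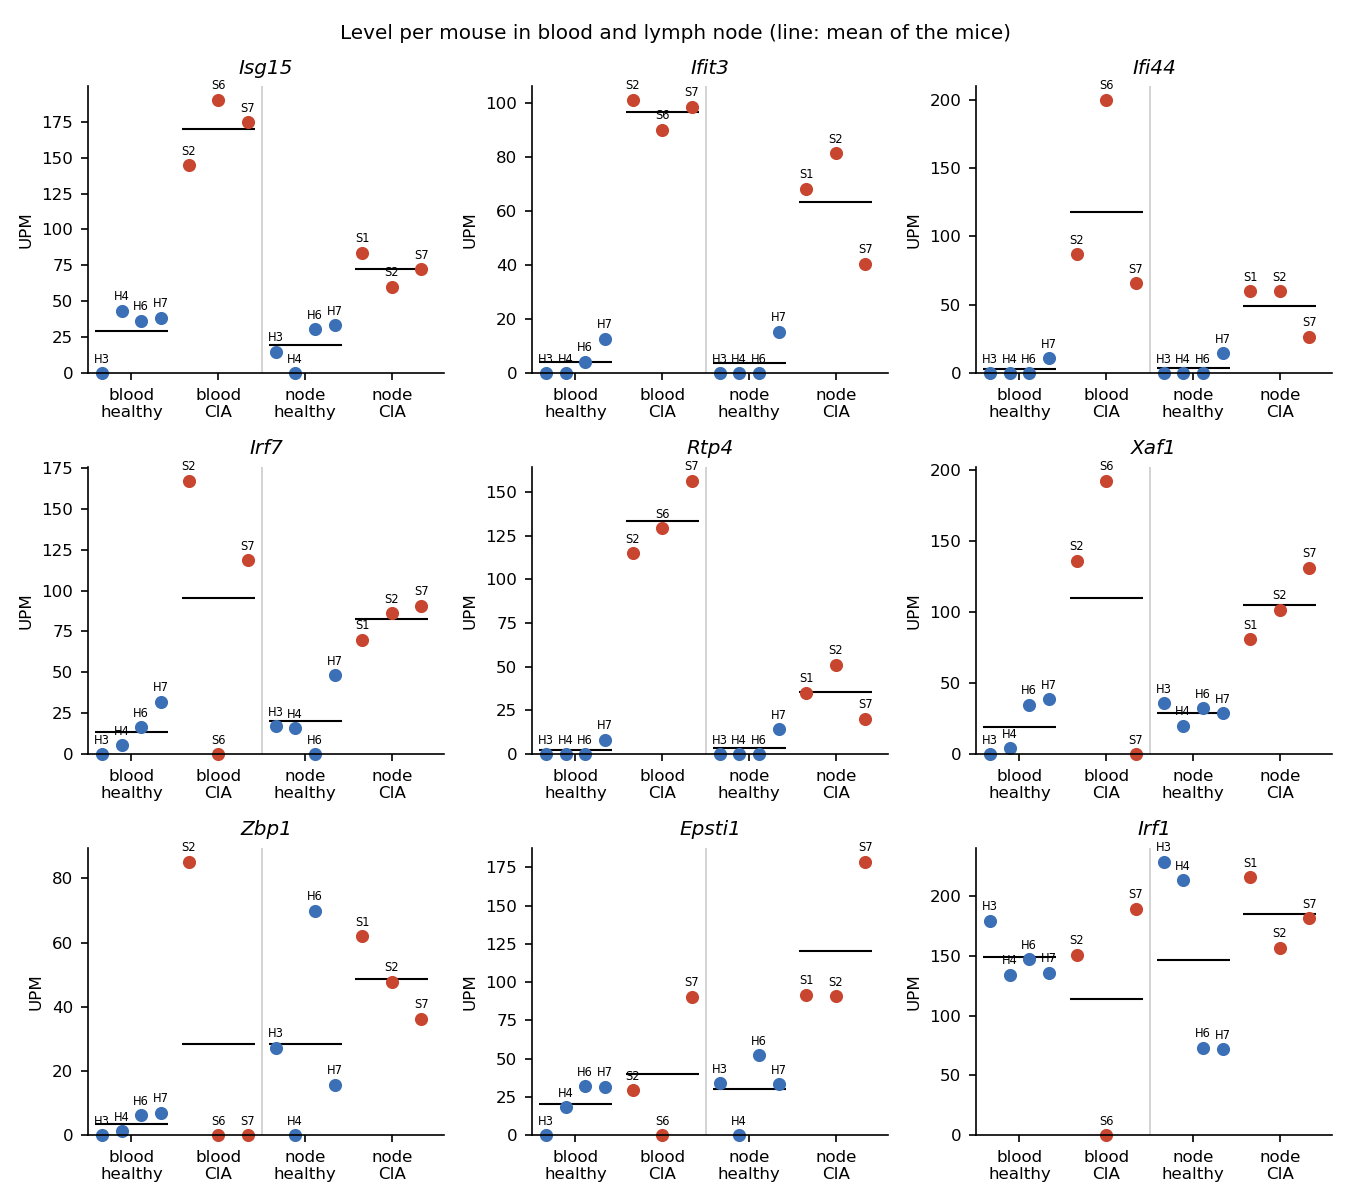
Level in UPM (y axis, 1 panel per gene) of each mouse, as a labelled point, in blood and lymph node of healthy (blue) and CIA mice (red), with a line at the mean. In blood the 3 CIA points of Isg15, Ifit3, Ifi44 and Rtp4 lie above all 4 healthy points, and in lymph node the same holds for 7 genes, all but Zbp1 and Irf1.

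Within the suffix 2CIA (H3 and 1 library of H4 against S1, S2 and S7), 8 of 9 members did not overlap in lymph node, all but Irf1, against 8.24% of the 10839 genes above 0 there. The lymph node differences of Isg15, Irf7, Xaf1 and Epsti1 were then 2.41, 2.52, 2.41 and 2.72, with an adjusted p of 0.826 for each by limma. In blood the same split left 4 of 9 members apart, against 5.13% of 10121 genes. Both healthy blood libraries listed these 4 genes at 0, so any value above 0 in each CIA mouse set them apart. The blood count therefore says little about a difference within the batch. In lymph node the suffix CIA held H4, H6, H7 and 1 library of S7, so it gives values with no test. There Xaf1 stood at 28.9 to 32.4 UPM in the 3 healthy libraries and 128 UPM in S7, and Isg15 at 0 to 33.4 UPM against 62.2 UPM. Zbp1 was lower in S7 (9.44 UPM) than in H6 and H7 (70.0 and 15.7 UPM).

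In lymph node, T-cell markers summed to 1653 to 2969 UPM in healthy and 1667 to 2090 UPM in CIA mice, and B-cell markers to 815 to 1958 UPM and 1082 to 1710 UPM. Monocyte markers summed to 621 to 1124 UPM and 890 to 1418 UPM, with 5 of 10 above 0 in every mouse. Markers of plasmacytoid dendritic cells, which are strong interferon producers, summed to 57.1 to 229 UPM in healthy and 87.7 to 197 UPM in CIA mice. Neutrophil markers summed to 27.95 to 3175 UPM in healthy and 470 to 1957 UPM in CIA mice, and plasma-cell markers to 73.6 to 256 UPM and 199 to 345 UPM. Erythroid genes took 95.3 to 140488 UPM in healthy and 204 to 646 UPM in CIA mice, and 3 of the 5 that passed the filter were lower in CIA at an unadjusted p under 0.05. Without them in the total the same 7 members did not overlap. The 11 immediate early and heat-shock genes, which respond to handling of cells, summed to 3913 to 5102 UPM in healthy and 2785 to 3999 UPM in CIA lymph node. None of them was called, 9 of 11 had a lower mean in CIA on the log2 scale (median difference -0.32), and 3 of 11 were wholly lower, against 2.56% of genes. In blood their median difference was -0.16. The part of cell makeup and handling in the members' levels was not tested.

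Whether the change with CIA differed between the organs was tested as an interaction over 14 sums (lymph node change minus blood change). No member was called by limma, and the call rule found no gene at all (0% of 4810, with 376 genes at an unadjusted p under 0.05, 5.7% of all with the larger change in lymph node and 2.12% with the larger change in blood). Rtp4 had the largest value, -1.80 (SE 0.85, unadjusted p 0.0451, adjusted p 0.619), with the larger change in blood. The other 8 members ran from -1.09 for Ifi44 to 1.69 for Irf1, with adjusted p between 0.728 and 0.999 by limma, against a median of 0.29 for all genes. This does not show that the changes were alike.

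In healthy mice no member was called between lymph node and blood, and for each of the 9 genes the groups overlapped, where 5.96% of genes tested (2.47% without the filter) had all lymph node values above all blood values and 1.54% below. Of the 2 members that passed the filter, Irf1 differed by -0.20 (SE 0.47, adjusted p 0.853 by limma) and Epsti1 by 0.32 (SE 0.77, adjusted p 0.855), with 2 genes called in all (0.0399% of 5015) and none when the same mice were paired by a replicate block. The other 7 members gave p between 0.171 and 1.00 in exact permutation tests over 8 sums. Zbp1 had the smallest of these p (difference 1.16), at 0 to 70.0 UPM in lymph node and 0 to 6.96 UPM in blood. These exact tests did not pair the 2 organs of a mouse. By limma neither of the 2 members tested had an unadjusted p under 0.05. Among all genes tested 16.5% had one with lymph node higher, a share that 2 members are too few to be set against.

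To see which lymphocytes held the genes, lymph node barcodes of each mouse were split by whether B-cell or T-cell markers had more units. B-marker barcodes made up 10.4% to 55.8% of barcodes in healthy mice and 32.4% to 46.9% in CIA mice. Both kinds held the members, and none was called between them by limma, where 0.964% of 5185 genes were called (42 higher in B-marker barcodes and 8 lower) and 5.5% were higher at an unadjusted p under 0.05. The groups overlapped for all 9 members, and 0.617% of genes were wholly above and 0.174% wholly below (0.275% above without the filter). Both states were pooled here, with no term for state. Ifit3, Ifi44 and Rtp4 were at 0 in both kinds of barcode in H3, H4 and H6, so their groups overlapped whatever the CIA values. With the mouse as a replicate block, 237 genes and again no member were called. Ifi44 showed the largest difference, 0.92 higher in B-marker barcodes (SE 0.71, adjusted p 0.709 by limma). In the 3 CIA mice it stood at 98.5, 102 and 75.3 UPM in B-marker and 25.5, 42.4 and 4.58 UPM in T-marker barcodes of S1, S2 and S7.

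The states were then compared within each kind of barcode. In B-marker barcodes, Ifit3, Ifi44, Irf7, Rtp4, Xaf1, Zbp1 and Epsti1 did not overlap between states, 7 of 9 members against 5.03% of the 5307 genes that passed the filter and 3.94% without the filter. In T-marker barcodes the 7 were Isg15, Ifit3, Ifi44, Irf7, Rtp4, Xaf1 and Epsti1, against 2.99% of 4975 genes and 2.62% without the filter. No member was wholly lower in CIA mice in either kind, against 3.41% and 2.29% of genes. No member was called by limma in either kind (0.226% and 0.0201% of genes were). Of the immediate early and heat-shock genes none was called in B-marker barcodes, with 8 of 11 lower in mean, 5 of 11 lower at an unadjusted p under 0.05 (2.79% of genes) and a median difference of -0.62, and had a median of -0.31 in T-marker barcodes. Their sums were 5673 to 8082 UPM in healthy and 3510 to 5020 UPM in CIA mice in B-marker barcodes. Of the 5 erythroid genes tested in B-marker barcodes 3 were called lower in CIA, with a median difference of -4.42 and sums of 104 to 210301 UPM in healthy and 217 to 605 UPM in CIA mice. Without erythroid genes in the total, 7 of 9 members again did not overlap in each kind. In T-marker barcodes the 10 monocyte markers summed to 530.0 to 689 UPM in healthy and 870 to 1067 UPM in CIA mice, and the 10 neutrophil markers to 31.5 to 977 UPM and 409 to 594 UPM. The 2 neutrophil markers tested there had a median difference of 1.42, and neither was called. The part of these markers in the members' levels was not tested. Most members had healthy means under 25 UPM in B-marker barcodes and passed the filter there only through the CIA mice, all of those tested but Irf1, as did Isg15 and Irf7 in T-marker barcodes.

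In B-marker barcodes Xaf1 stood at 0 to 27.8 UPM in healthy and 95.5 to 162 UPM in CIA mice (difference 2.32, SE 0.74, adjusted p 0.324 by limma). In T-marker barcodes the same gene stood at 24.8 to 38.4 UPM and 75.0 to 119.9 UPM (difference 1.35, SE 0.43, adjusted p 0.997 by limma). Irf7 ran from 0 to 53.4 UPM against 68.3 to 134 UPM in B-marker barcodes, and from 0 to 38.4 UPM against 67.6 to 76.1 UPM in T-marker barcodes. Rtp4 in B-marker barcodes did not pass the filter and gave p = 0.0286 in the exact permutation test, the smallest possible, as did Ifi44 in T-marker barcodes. For Ifi44 this rests on 4.04 UPM in H7 against 4.58 UPM in S7. Both lie under the lowest percentile above 0 of the lymph node libraries (5.12 to 21.6 UPM). Smoothing adds units of neighbouring cells to each barcode, so the split does not separate the cell types fully.

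**Figure D3:**
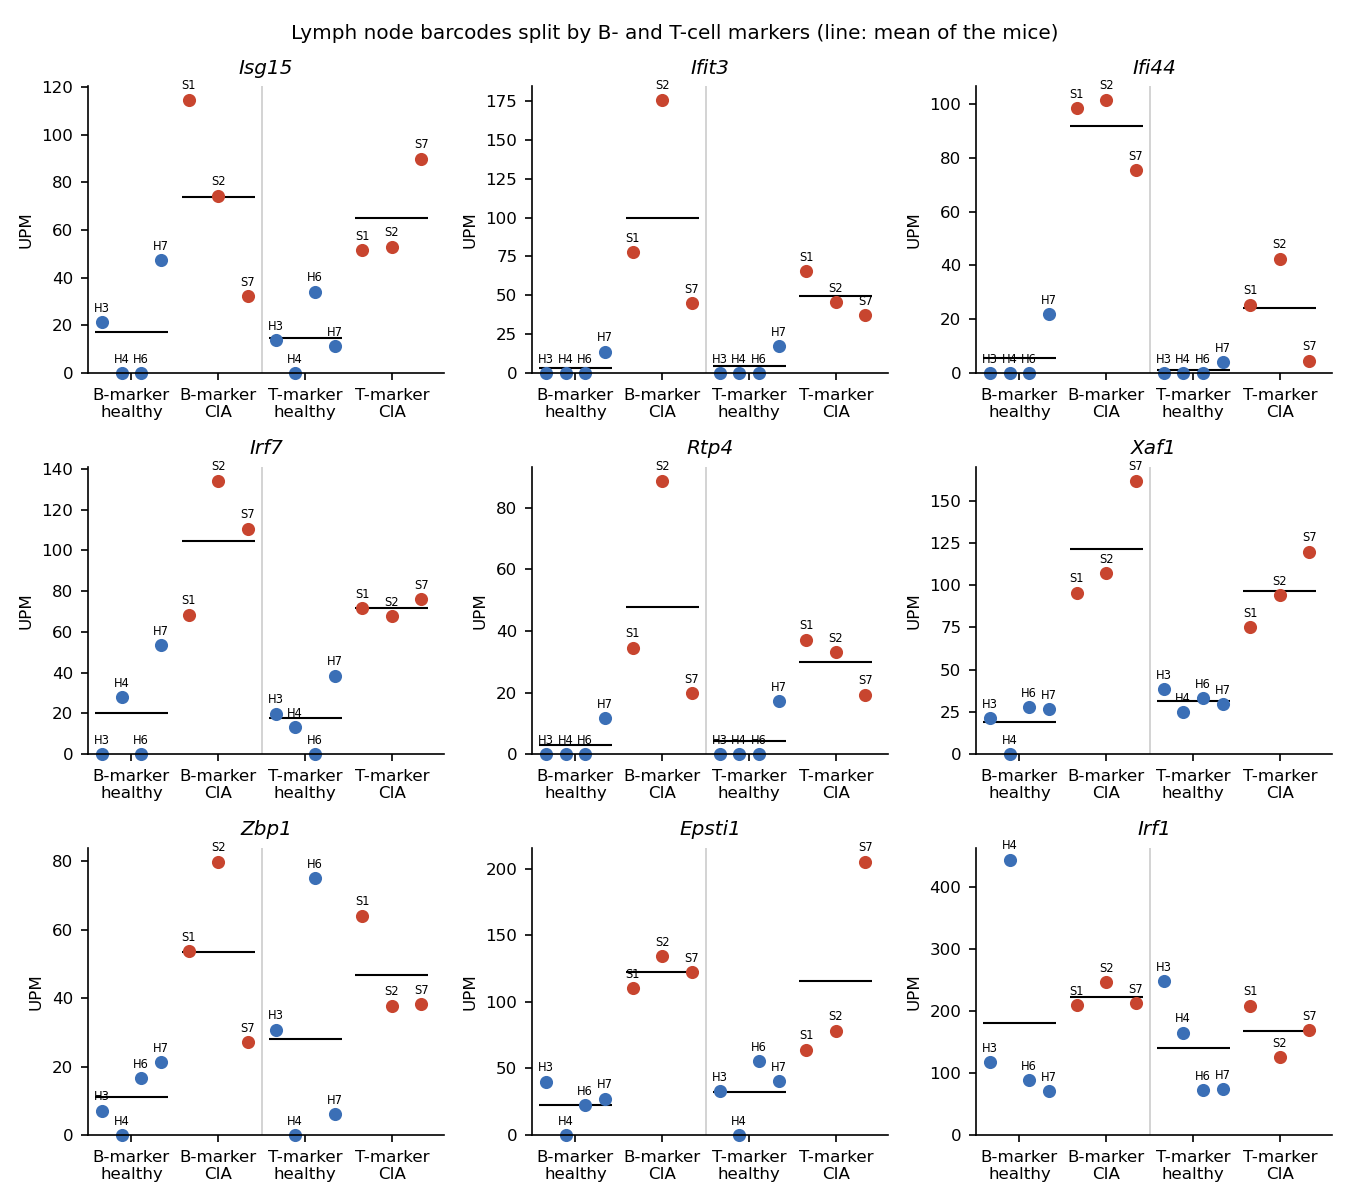
Level in UPM (y axis, 1 panel per gene) in lymph node barcodes with more B-cell or more T-cell marker units, for each healthy (blue) and CIA mouse (red), with a line at the mean. The CIA points of 6 genes (Ifit3, Ifi44, Irf7, Rtp4, Xaf1, Epsti1) lie above the healthy points in both kinds of barcode, and Irf1 overlaps in both.

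The other 6 organs had 1 healthy and 1 CIA mouse each and carry no test. In 5 of them state and library suffix went together, so the batch and the state cannot be told apart there. Spleen and joint held the most members at least 2-fold higher in CIA on the UPM + 10 scale, 6 of 9 each, against 16.4% of 15126 genes above 0 in spleen and 16.4% of 16573 in joint. Muscle had 4 of 9, against 35.3% of genes above 0. Lung, thymus and skin had 2 of 9 each, against 22.6%, 10.5% and 14.9% of genes above 0. Several members reached a mean of 25 UPM only through the CIA mouse, so no count over those that passed the filter is given. The share in muscle was thus near the background, and the median over the genes that passed the filter there was 0.47. No member was lower by 2-fold or more in spleen (16.7% of genes above 0), thymus (10.3%), joint (12.4%), muscle (33.8%) or skin (15.6%), and 2 were in lung (42.8%).

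In spleen, Irf7 stood at 18.9 UPM in H6 and 166 UPM in S1, Xaf1 at 12.9 and 80.9 UPM, Zbp1 at 14.6 and 54.2 UPM, and Ifit3 at 13.8 and 42.7 UPM. Ifi44 and Rtp4 were listed at 0 in H6 and stood at 27.6 and 40.1 UPM in S1. Isg15 was already at 184 UPM in the healthy mouse and at 245 UPM in S1, while Epsti1 stood at 47.4 and 47.7 UPM and Irf1 at 164 and 150.2 UPM.

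In joint, the site of arthritis, 7 of 9 members were listed at 0 in H3 and all 9 stood above 0 in S1. Irf7 reached 60.1 UPM, Xaf1 48.9 UPM, Rtp4 41.4 UPM, Zbp1 41.3 UPM, Ifit3 30.7 UPM, Ifi44 29.0 UPM and Epsti1 8.73 UPM. The smaller library of S1, with 70 barcodes, listed 5 of these 7 at 0. Isg15 was at 110 UPM in H3 and 139 UPM in S1, and Irf1 was lower in S1, at 123 against 233 UPM. The lowest percentile above 0 was 11.7 UPM in the joint library of H3.

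In muscle, Rtp4 and Ifi44 went from 0 in H6 to 82.7 and 54.4 UPM in S1, and Irf7 from 25.2 to 139 UPM, in a CIA library of 54 barcodes. In lung, Ifit3, Ifi44, Rtp4 and Xaf1 were at 0 in both mice, Epsti1 went from 79.6 UPM to 0, and Zbp1 from 0 to 57.6 UPM. In thymus Ifit3 and Ifi44 were at 0 in both mice, Isg15 stood at 51.5 and 34.3 UPM and Irf7 at 8.50 and 35.9 UPM, and in skin Zbp1 went from 0 to 21.1 UPM.

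By gene, Irf7, Rtp4 and Zbp1 were at least 2-fold higher in CIA in 4 of the 6 organs, Ifi44 and Xaf1 in 3, Ifit3 in 2, Epsti1 and Irf1 in 1 and Isg15 in none. All CIA values came from S1 and all healthy ones but those of joint from H6, so the organs are not replicates of the state. No share over all genes was taken for these counts. Isg15 was nevertheless higher by some amount in 5 of 6. Irf7 and Epsti1 were at least 2-fold lower in the CIA lung.

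**Figure D4:**
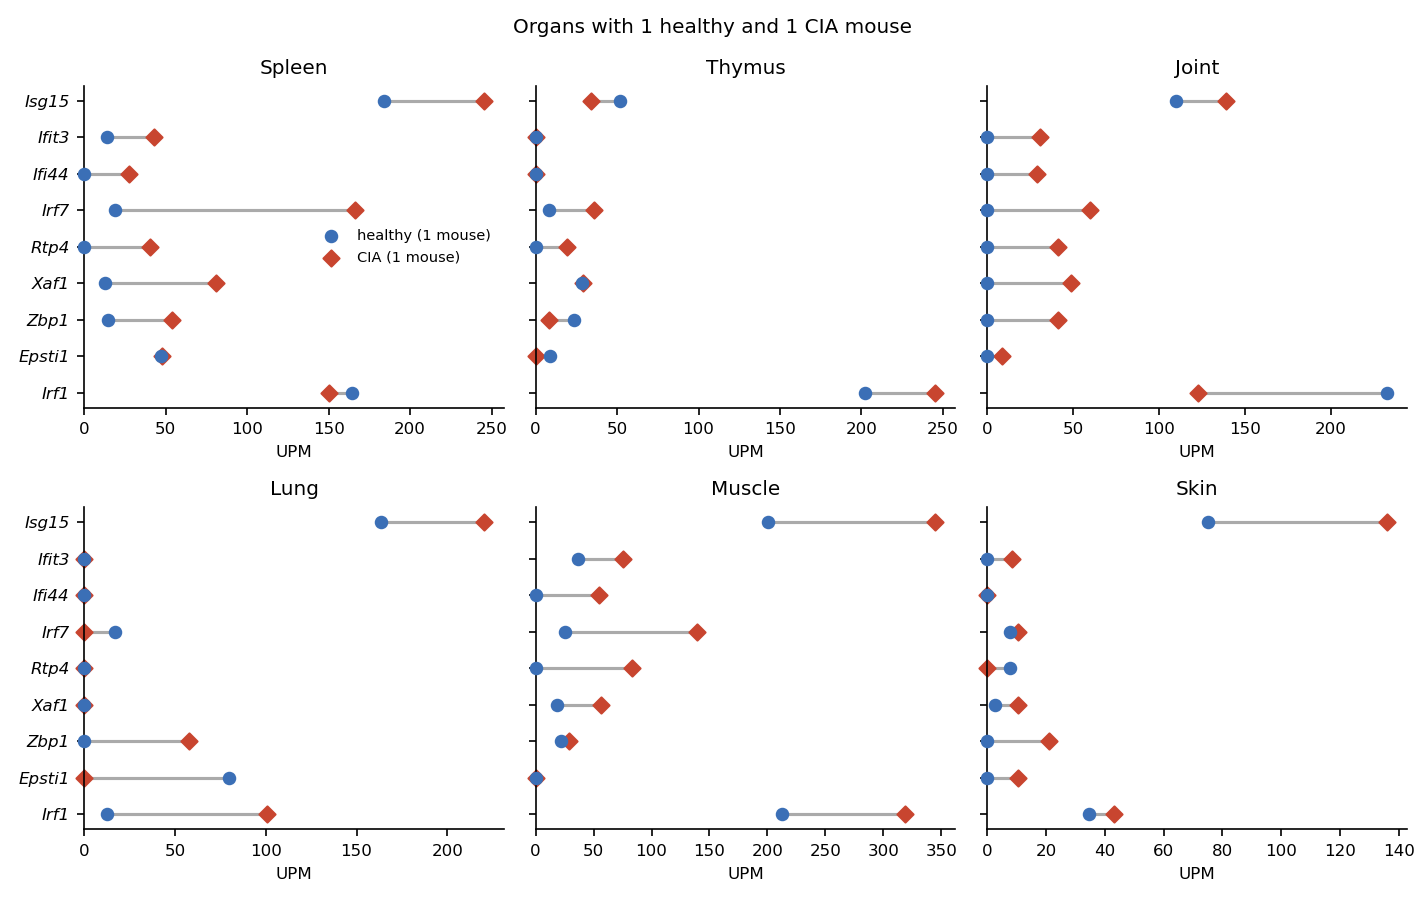
Level in UPM (x axis) of each gene (rows) in the healthy mouse (blue circle) and the CIA mouse (red diamond) of 6 organs, 1 panel per organ, with a grey line joining the pair. In spleen and joint most red diamonds lie to the right of the blue circles, and in lung and thymus several pairs lie together at 0.

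Likeness between genes was measured as Pearson's r of log2(UPM + 10) over the 26 sums of mouse and organ, among the 5417 genes whose mean reached 25 UPM. The sums share mice, depth and organ, so r is a description with no p. Ifi44, Rtp4 and Ifit3 formed a close trio, with r of 0.94 between Ifi44 and Rtp4, 0.91 between Ifi44 and Ifit3 and 0.87 between Ifit3 and Rtp4. Ddx60, an interferon-induced helicase, was among the 3 nearest genes of each (r 0.87 to 0.91). Irf7 was nearest to Ifit3 (0.73), and Zup1 (0.81) and Psmb9 (0.78), a subunit of the immunoproteasome, were among the 3 genes nearest to Xaf1. Isg15 was nearest to Nampt (0.86), Fuca1 (0.85) and Kctd12 (0.84), none of them a member. Irf1 had a median r of 0.01 with the other 8 members, against 0.59 for Ifit3, and its nearest gene was Ppp1r18 (0.81).

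Other genes of the pathway were read from lists chosen by function. The medians below are over genes that passed the filter, some of them only through the CIA mice. Of 39 other interferon effectors, 17 passed the filter in blood, 2 of which were called by limma with CIA higher and none lower. Ifitm3, a membrane protein that blocks virus entry, stood at 21.1 to 55.2 UPM in healthy and 445 to 1164 UPM in CIA mice (difference 4.21, SE 0.67, adjusted p 0.00442 by limma). Ifi27l2a stood at 59.8 to 277 UPM and 1539 to 2047 UPM (difference 3.83, SE 0.56, adjusted p 0.00299). Both calls ended without S2 (adjusted p 0.258 for each by limma), without a mean-variance trend (0.0963) and with a replicate block on mouse numbers (0.374). The differences under these settings were 3.94, 4.21 and 4.19 for Ifitm3 and 3.73, 3.83 and 3.18 for Ifi27l2a. Slfn5, Trim30a and Ifitm2 differed by 3.09, 2.97 and 2.44 and were not called (adjusted p 0.404, 0.259 and 0.383 by limma). Slfn5 had a healthy mean of 8.31 UPM and passed the filter only through the CIA mice.

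In lymph node 13 of the 39 passed the filter and 1 was called, Ifi27l2a, at 133 to 336 UPM in healthy and 929 to 1485 UPM in CIA mice (difference 2.55, SE 0.33, adjusted p 0.00132 by limma). That call ended without a mean-variance trend (adjusted p 0.313 by limma), where the difference is the same. Trim30a, Slfn5, Phf11b and Bst2 differed by 1.32, 1.37, 1.23 and 1.20 (adjusted p 0.930 to 0.999 by limma). Ifitm3 and Ifi27l2a belong to families of similar copies, so reads shared with a copy make their levels uncertain to that extent.

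Upstream of the members no gene tested was called. None of 6 receptor and kinase genes tested in blood or 7 in lymph node was called, with medians of 0.03 and -0.08, and Ifnar1, a chain of the type I receptor, differed by 0.52 in blood and -0.51 in lymph node (adjusted p 0.899 and 0.999 by limma). Of the STAT and IRF factors, 6 were tested in each organ and none was called. Irf9 stood at 0 to 66.3 UPM in healthy and 60.01 to 122 UPM in CIA lymph node (difference 2.13, SE 0.64, adjusted p 0.930 by limma). Its healthy mean was 23.1 UPM, so it passed the filter only through the CIA mice. Of 17 genes typical of type II interferon, such as guanylate-binding proteins and immunoproteasome subunits, 4 were tested in blood and 9 in lymph node with none called and medians of 0.52 and 0.51. In lymph node Gbp4 and Psmb9 differed by 1.25 and 0.55 (adjusted p 0.999 for both by limma).

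Of 9 interferon genes listed, 3 had rows in the table (Ifnb1, Ifng and Ifnk) and none passed the filter. Their sum was 0 in every CIA blood and lymph node mouse and between 0 and 13.8 UPM in the healthy ones. None of 2 nucleic acid sensors or adaptors tested in each organ was called (medians 0.70 and 0.32), nor of 4 negative regulators in blood and 5 in lymph node (medians -0.82 and 0.06). Socs3, a feedback inhibitor of JAK kinases, differed by -0.99 in blood and 0.78 in lymph node (adjusted p 0.818 and 0.999 by limma).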

How the data were processed

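Seq-Well libraries of DBA1/J mice were read with STAR and Drop-seq tools against GRCm38 according to the study's methods, whereas the processing notes name GRCh38 and mm9. Cells had at least 10000 reads, 400 transcripts and 200 genes and under 20% mitochondrial transcripts, and were smoothed by the authors over nearest neighbours (k = 12). The deposited values, whole numbers per gene and barcode, are therefore a smoothed signal, so count models, counting intervals and doublet callers were not used. Depth in reads is unknown from them.

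Units were summed per mouse and organ, with repeat libraries of a mouse added, and divided by their total. The mouse was the replicate. limma 3.58.1 (R 4.3.3, mean-variance trend, two-sided) was fitted to log2(UPM + 10) of all genes whose mean over the fitted samples reached 25 UPM, with Benjamini-Hochberg adjustment over all of them, and members under that minimum had two-sided exact permutation tests over mice. A gene was called at an adjusted p under 0.05. Lymph node kinds needed at least 10 barcodes per mouse. Steps were tested on simulated data. Entrez numbers of 21404 of 23013 rows matched a RefSeq symbol.

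The members, gene lists and tests were chosen with earlier results of these data known. Named genes were the 9 members, the genes with the smallest p of each list (up to 5 effectors and up to 3 of other lists), and the 3 genes most like each member, of which 1 gene is not reported here. Members lay, by GENCODE M21 on GRCm38, on chromosome 4 (Isg15, 156199424 to 156200818), 19 (Ifit3, 34583531 to 34588731), 3 (Ifi44, 151730922 to 151749960), 7 (Irf7, 141262706 to 141266481), 16 (Rtp4, 23520291 to 23614222), 11 (Xaf1, 72301629 to 72313733), 2 (Zbp1, 173206612 to 173218923), 14 (Epsti1, 77904239 to 78002657) and 11 (Irf1, 53770014 to 53778374). Irf7, Rtp4 and Irf1 overlap genes on the opposite strand (Phrf1, Masp1 and Gm17334) and Rtp4 also Gm45338 on its own strand, so their reads are uncertain to that extent, and strand use in counting is not given in the sources used here. Alternatives changed the scaling, pseudocount, filter, trend, repeated profiles, suffix, pairing and each mouse in turn.

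In healthy mice lymph node and blood sums come from the same animals, and their deviations from the group means correlated between -0.17 and 0.16. Among CIA mice S2 and S7 gave both organs, S1 gave lymph node without blood and S6 blood without lymph node. No such correlation was taken for the CIA mice. B- and T-marker sums of a mouse correlated between 0.35 and 0.55, so the mouse pairs them.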

Additional observations from a re-analysis of the deposited data

Results flagged for a closer look

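Of 18 groups of 4 healthy mice tested (9 genes in blood and in lymph node), 6 had a mouse whose gap to the nearest other mouse exceeded the 95% critical value for 4 samples, where chance flags about 1 in 20. In 5 of them the mouse was H7. It stood at 11.0 UPM for Ifi44 and 8.29 UPM for Rtp4 in blood, and at 15.3 UPM for Ifit3, 14.5 UPM for Ifi44 and 14.1 UPM for Rtp4 in lymph node, while the other 3 healthy mice were listed at 0 in each. With 3 values at 0, any value above 0 is flagged. The sixth was Isg15 in blood, listed at 0 in H3 and at 36.5 to 43.3 UPM in the other healthy mice. The blood library of H3 had 27 barcodes and its lowest percentile above 0 was 41.4 UPM.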

How the results depend on the processing

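No member was called under any alternative run. The members that did not overlap numbered 3 to 5 in blood (3 with TMM, where Isg15 overlapped) and 6 to 8 in lymph node. In the separate organs, the 2-fold label of Epsti1 and Irf1 in joint, Xaf1 in muscle and Ifit3 in spleen depended on scaling or repeated profiles.

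The number of all genes called moved. In blood 16 genes became 3 with TMM scaling, 3 with a pseudocount of 1 and 0 without a mean-variance trend (504 genes at an unadjusted p under 0.05). It was 0 to 21 with each mouse left out, 0 without S2, 2 without H4 and 10 without S6 or S7. In lymph node 1 gene became 9 without a filter (2 higher, 7 lower), 0 without a trend (223 unadjusted), 3 among 2CIA libraries, and 1 to 7 with each mouse left out, 7 without H3. In healthy lymph node against blood, 2 became 0 with a pseudocount of 1 (773 unadjusted), 0 without a trend (875) and 92 with each distinct profile used once (76 higher, 16 lower), and 0 to 283 with each mouse left out, 283 without H6, 16 without H7, 1 without H4 and 0 without H3. The interaction gave 0 to 3 calls, 3 without S6. Between B- and T-marker barcodes 50 became 28 without a trend and 91 at a marker ratio of at least 1.5 (71 higher, 20 lower), and 27 to 61 with each mouse left out, 27 without S7. For CIA in B-marker barcodes 12 became 3 with median-of-ratios scaling, 7 without erythroid genes in the total, 1 with a pseudocount of 1, 1 without a filter, 0 without a trend (279 unadjusted), 7 with distinct profiles and 0 among 2CIA libraries (384 unadjusted), and 1 to 22 with each mouse left out, 22 without H3, 2 without H4 and 1 without H7. In T-marker barcodes 1 became 0 without a trend (227 unadjusted) and 3 among 2CIA libraries, and 1 to 5 with each mouse left out, 5 without H3. The causes were not tested.

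Signs reversed for the following values, none of them called. Among 2CIA libraries Irf1 became 0.65 in blood, -0.16 in lymph node and -0.33 in T-marker barcodes, and the interaction -0.090 for Irf7, -0.33 for Xaf1 and -0.82 for Irf1. The interaction also became -0.094 for Xaf1 and -0.079 for Zbp1 with median-of-ratios scaling, -0.10 for Xaf1 without erythroid genes and -0.0081 for Xaf1 with distinct profiles. Healthy lymph node against blood became -0.019 for Epsti1 with TMM, and 0.091 for Ifit3 and -0.055 for Ifi44 with distinct profiles. Between B- and T-marker barcodes Isg15 became 0.0065 with median-of-ratios scaling and 0.019 without erythroid genes, and Irf7 -0.21 with a pseudocount of 1.

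With each mouse left out, blood ranged from -0.40 to 1.22 for Zbp1, -0.42 to 1.25 for Epsti1 and -1.98 to 0.18 for Irf1. The interaction ranged from -1.02 to 1.02 for Irf7, -1.50 to 0.84 for Xaf1 and -0.26 to 1.37 for Zbp1. Healthy lymph node against blood ranged from -0.92 to 0.32 for Isg15, -0.17 to 0.051 for Ifit3, -0.066 to 0.88 for Irf7, -0.29 to 0.92 for Epsti1 and -0.47 to 0.045 for Irf1. Between B- and T-marker barcodes the ranges were -0.26 to 0.34 for Isg15, -0.010283 to 0.40 for Irf7, -0.065 to 0.19 for Rtp4, -0.43 to 0.0039 for Zbp1 and -0.21 to 0.084 for Epsti1.

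With a replicate block on shared mouse numbers, blood gave 0 calls (575 unadjusted) and the differences -0.051 for Xaf1, -0.72 for Zbp1 and -0.40 for Epsti1. There H6 and S6, and H7 and S7, share only a number (correlation of deviations 0.21 and -0.08). With the block the interaction became -0.92 for Irf7 and -0.41 for Zbp1, healthy lymph node against blood gave 0 calls (934 unadjusted), and B- against T-marker barcodes gave 237 (149 higher, 88 lower). No replicate block was fitted to lymph node CIA against healthy mice, where only number 7 is in both groups.

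With 3 or 4 mice per group, the smallest exact p is 0.0286 and log2 differences had standard errors of 0.37 to 1.13 in blood and lymph node.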
